A study of Mus musculus with 3 samples.

Results

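The genes described here encode the enzymes that write and remove cytosine methylation in DNA, with 1 cofactor of the writers: Dnmt1, Dnmt3a, Dnmt3b, Uhrf1, Tet1, Tet2 and Tet3. All 7 were found among 18194 named genes on the array, each taken by its gene symbol, and they were covered by 19 of 34958 probe sets that carry a single symbol. A probe set is a group of short probes against 1 transcript. The 7 genes had between 1 probe set (Tet3) and 5 probe sets (Dnmt3a), and no member carried an older name in the array annotation. The list was chosen by function and not by a threshold, but with earlier results of these arrays known, so its differences are given as descriptions.

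RNA of mouse CD8 T cells was hybridised to 3 one-colour arrays, 1 for each population. The tissue is labelled MLN, the mesenteric lymph node in the study. The populations are VILLIN-HA/CL4-TCR, Villin-HA + CL4-TCR and CL4-TCR. All 3 carry the CL4 T cell receptor transgene, which makes CD8 T cells recognise influenza hemagglutinin (HA). In VILLIN-HA and Villin-HA the antigen is placed under the promoter of villin, a gene of gut epithelium, so that gut epithelial cells make it. The series lists an ordinary, an activated and a regulatory CD8 population, of which the last 2 arose in vivo. Nothing in the labels ties either of these names to 1 of the HA arrays. From what is known of the study, and not from the labels, the suppressive population was taken from mice with both transgenes. Strain, age, the number of animals pooled and the way the cells were sorted were not given in the sources used here.

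DNA methylation at CpG sites is copied after each round of replication and can also be set anew or removed. UHRF1 binds hemimethylated CpG sites behind the replication fork and brings in DNMT1, which restores the second strand. DNMT3A and DNMT3B methylate sites that carried no mark, and in CD8 T cells DNMT3A is known for methylating effector or memory genes during differentiation. TET1, TET2 and TET3 oxidise methylcytosine, which leads to its loss by repair or by dilution at replication, and loss of TET2 favours memory in mouse CD8 T cells. UHRF1 is itself neither a writer nor an eraser but the recruiter of DNMT1.

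Values are MAS5 signals on a linear scale. The median of all values, a signal of 31.7, served as the floor, and weaker signals were raised to it. Genes count as measured if either array of the pair exceeded the floor. They were called higher or lower at a fold of 2, a log2 difference of at least 1 in size. A difference with its lower signal under the floor is a bound, given as "at least". Each population had a single array, so no test was possible and each difference is one between 2 arrays. The only measure of error is the disagreement between probe sets of 1 gene. The pooled SD of their log2 differences was 0.43 between VILLIN-HA/CL4-TCR and CL4-TCR, 0.65 between the Villin-HA + CL4-TCR array and CL4-TCR, and 0.61 between the 2 HA arrays.

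The arrays held 10342, 11422 and 10271 genes above the floor in the order VILLIN-HA/CL4-TCR, Villin-HA + CL4-TCR and CL4-TCR. The 7 CD8 T cell markers found on the array were measured on each, and none was called different in any comparison. The co-receptor gene Cd8a had signals of 2893, 3149 and 2714 in the same order, while Cd4 lay under the floor on all 3 arrays (5.9, 9.4 and 9.1). The 3′ to 5′ signal ratio, a sign of RNA quality, was 46.2, 3.35 and 18.4 for the Gapdh control but 2.46, 1.80 and 1.98 for the beta-actin control. The arrays also differed in Xist, a transcript of female cells, which had signals of 2.5, 1339 and 5442.5. The Y-linked genes went the other way, with 1496, 747 and 13.4 for Eif2s3y and 402, 136 and 0.8 for Kdm5d. Villin-HA + CL4-TCR thus had signals of both kinds. Sex differed between the arrays and cannot be told apart from population in any comparison. Of 12 myeloid markers, 9 were measured and 4 higher on VILLIN-HA/CL4-TCR than on CL4-TCR, with a summed signal of 1678 against 346. On Villin-HA + CL4-TCR against CL4-TCR, 6 of 9 measured myeloid markers were higher (summed signal 1375 against 346), as were 6 of 7 neutrophil, 5 of 7 stromal and endothelial, and 10 of 10 skeletal muscle markers. The muscle markers summed to 5984 on Villin-HA + CL4-TCR, against 182 on CL4-TCR, and the neutrophil markers to 1871 against 155. Of 4 measured B cell markers, 1 was higher and 0 lower on each HA array than on CL4-TCR. It was Ms4a1 on VILLIN-HA/CL4-TCR (147 against 55.8) and Cd79b on Villin-HA + CL4-TCR (233 against 110.5). The B cell marker Ighm had 2666, 1913 and 3005 on VILLIN-HA/CL4-TCR, Villin-HA + CL4-TCR and CL4-TCR, while Cd79a lay under the floor on all 3. The macrophage complement genes C1qa, C1qb and C1qc had signals of 36, 149 and 44.3 on VILLIN-HA/CL4-TCR and of 29.6, 44.6 and 3.0 on Villin-HA + CL4-TCR, against 4.0, 18.1 and 3.1 on CL4-TCR. C1qa and C1qc lay near or under the floor and were not called. Of 11 myeloid markers measured between the HA arrays, 3 were higher on VILLIN-HA/CL4-TCR and 3 lower. The higher ones were Lyz2, Csf1r and C1qb. The lower ones were Cd68 (49.1 against 106), Fcgr3 (11.1 against 82.8) and Itgax. Itgax, a marker of dendritic cells, had signals of 43.5 on VILLIN-HA/CL4-TCR, 431 on Villin-HA + CL4-TCR and 38.9 on CL4-TCR. The part of these differences in the results below was not tested, and in bulk RNA fewer cells of a type and less RNA per cell cannot be told apart.

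Across the family, Uhrf1 and Dnmt3a were the members called in every comparison. Of the 7 genes, 2 were higher and 0 lower on VILLIN-HA/CL4-TCR than on CL4-TCR, where 7.43% of all 11260 measured genes were higher and 6.63% lower. On Villin-HA + CL4-TCR 1 was higher and 2 were lower than on CL4-TCR, where 11.9% of 12196 measured genes were higher and 9.53% lower. Between the HA arrays, 2 were higher on VILLIN-HA/CL4-TCR than on Villin-HA + CL4-TCR and 1 was lower, where 6.14% of 12081 measured genes were higher and 8.95% lower. The median log2 difference of the 7 genes was 0.24, 0.06 and 0.74 in these comparisons, and that of all measured genes was -0.04, 0.06 and -0.06. Both HA arrays were set against the same CL4-TCR array, so the first 2 comparisons share its error.

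**Figure D1:**
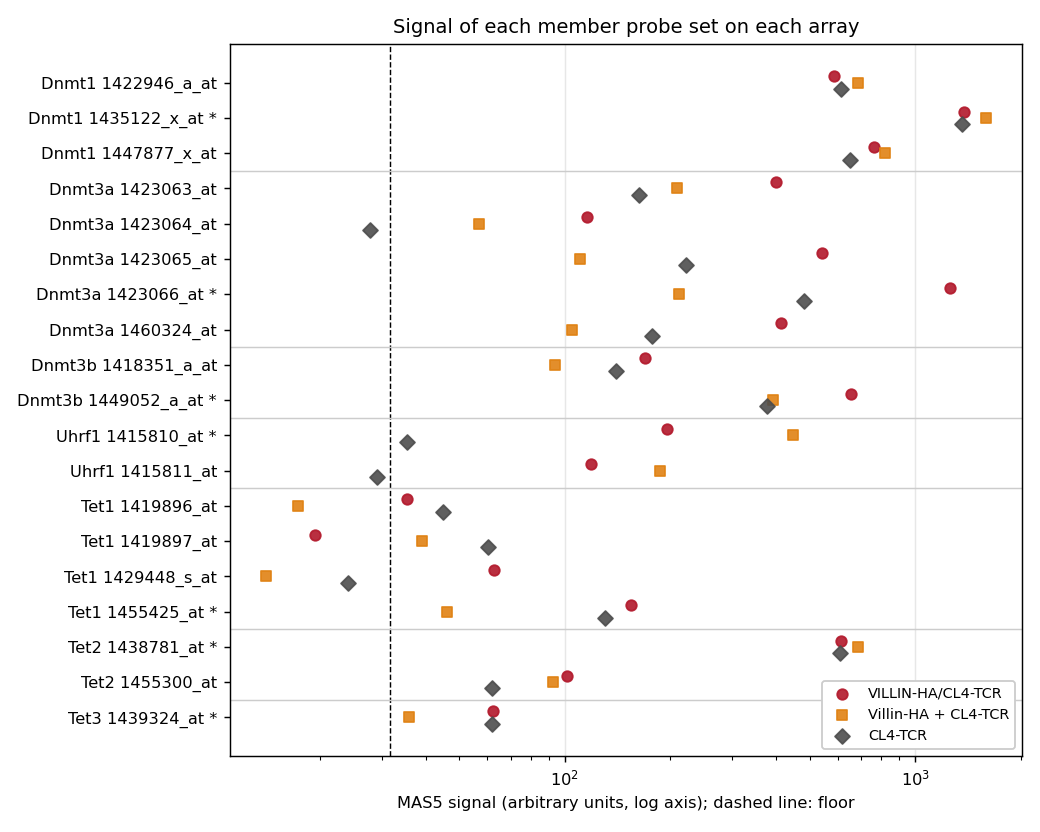
MAS5 signal (arbitrary units, log axis) of the 19 member probe sets on the VILLIN-HA/CL4-TCR (circles), Villin-HA + CL4-TCR (squares) and CL4-TCR (diamonds) arrays, 1 array each and so with no error bar; the star marks the probe set that represents its gene and the dashed line the floor of 31.7. All 5 Dnmt3a probe sets were highest on VILLIN-HA/CL4-TCR, both Uhrf1 probe sets were lowest on CL4-TCR, and those of Dnmt1 lay close together.

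Uhrf1, the factor that reads newly replicated DNA, was the member with the largest difference from CL4-TCR, and it was highest on Villin-HA + CL4-TCR. Its representing probe set had a signal of 196 on VILLIN-HA/CL4-TCR, 448 on Villin-HA + CL4-TCR and 35.5 on CL4-TCR. The CL4-TCR signal was thus just above the floor, and both HA arrays lay well above it. The log2 difference from CL4-TCR was 2.47 on VILLIN-HA/CL4-TCR, a fold of 5.52, and 3.66 on Villin-HA + CL4-TCR, a fold of 12.6. The other probe set had signals of 118.5, 187 and 29.1 in the same order, the last under the floor, which gives at least 3.74-fold and at least 5.90-fold. The order of the arrays was the same in both probe sets, which have the same source sequence in the array annotation. VILLIN-HA/CL4-TCR was lower than Villin-HA + CL4-TCR, with log2 differences of -1.19 by the first probe set and -0.66 by the second. The second is short of 2-fold and about the size of the pooled SD of 0.61. After scaling all arrays to 1 median, the first became -0.93, also short of 2-fold.

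Dnmt1, the maintenance methyltransferase that UHRF1 recruits, had no called difference on any array pair. Its 3 probe sets had signals of 586, 1375 and 761 on VILLIN-HA/CL4-TCR. They had 685.5, 1596 and 817 on Villin-HA + CL4-TCR, against 615, 1358 and 650 on CL4-TCR. All log2 differences from CL4-TCR lay between -0.07 and 0.23 on VILLIN-HA/CL4-TCR and between 0.16 and 0.33 on Villin-HA + CL4-TCR, smaller than the pooled SD between probe sets. All 3 are of types that can match several transcripts, so Dnmt1 had no probe set of the plain type.

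The promoters of these genes are shown because Uhrf1 differed from CL4-TCR in the direction of the DNA replication genes and Dnmt1 did not. E2F factors switch on genes of S phase, and UHRF1 is a known E2F1 target in human cells. The windows run from 250 bases before to 50 bases after an annotated start and come from RefSeq (build GRCm38.p6), which holds 2 windows for Uhrf1, 3 for Dnmt1 and 3 for Dnmt3a. Capitals mark matches on either strand to the E2F-type motifs TTTCCCGC, TTTCGCGC, TTTGCCGC and TTTGGCGC.
Uhrf1 (chr17:56304063-56304362, plus strand): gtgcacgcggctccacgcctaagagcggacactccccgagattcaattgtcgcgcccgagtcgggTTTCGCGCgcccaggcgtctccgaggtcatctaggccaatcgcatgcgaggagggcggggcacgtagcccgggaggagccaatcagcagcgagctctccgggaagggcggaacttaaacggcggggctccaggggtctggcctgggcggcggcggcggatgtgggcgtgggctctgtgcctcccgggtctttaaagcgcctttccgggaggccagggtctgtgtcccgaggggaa
Dnmt1 (chr9:20952574-20952873, minus strand): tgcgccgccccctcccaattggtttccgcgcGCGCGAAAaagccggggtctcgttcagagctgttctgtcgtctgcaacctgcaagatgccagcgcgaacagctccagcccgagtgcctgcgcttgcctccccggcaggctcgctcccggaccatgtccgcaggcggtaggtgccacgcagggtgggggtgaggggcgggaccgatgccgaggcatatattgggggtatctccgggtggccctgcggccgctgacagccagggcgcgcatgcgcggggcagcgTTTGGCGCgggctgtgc
Dnmt3a (chr12:3806730-3807029, plus strand): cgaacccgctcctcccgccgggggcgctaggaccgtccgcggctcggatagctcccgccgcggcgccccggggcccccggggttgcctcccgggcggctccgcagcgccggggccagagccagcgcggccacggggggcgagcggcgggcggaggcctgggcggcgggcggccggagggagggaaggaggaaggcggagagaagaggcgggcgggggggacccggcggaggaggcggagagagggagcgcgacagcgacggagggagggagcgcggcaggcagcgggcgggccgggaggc
A match was found in 1 of 2 Uhrf1 windows, 1 of 3 Dnmt1 windows and 0 of 3 Dnmt3a windows, and the single windows of Dnmt3b, Tet1, Tet2 and Tet3 held none. The Uhrf1 match begins 185 bases before the annotated start, and the Dnmt1 window holds 2 matches on opposite strands. Of all 32851 promoter windows, 2.26% held a match, and of the 19 windows of the DNA replication genes listed below, 6 did (31.6%). The windows printed held 33 CpG sites for Uhrf1, 33 for Dnmt1 and 46 for Dnmt3a, where the median over all windows was 7. The windows not printed held 12 for Uhrf1, 2 and 12 for Dnmt1, and 47 and 18 for Dnmt3a. All 4 motifs hold a CpG, and the windows of the replication genes had a median of 18 CpG sites, so their higher share of matches was not adjusted for CpG content. A match is a run of letters and not a measured binding site.

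Some other parts of the maintenance machinery were higher on both HA arrays. Of 14 measured DNMT1 and UHRF1 partners, 5 were higher and 0 lower on VILLIN-HA/CL4-TCR than on CL4-TCR, and 6 were higher and 1 lower on Villin-HA + CL4-TCR than on CL4-TCR. Their median log2 difference was 0.68 and 0.69, against -0.04 and 0.06 over all genes. Of all measured genes, 7.43% and 11.9% were higher, and 6.63% and 9.53% lower. Pclaf, a PCNA-binding protein that helps bring DNMT1 to replicating DNA, had signals of 2137, 3007 and 91.4 on VILLIN-HA/CL4-TCR, Villin-HA + CL4-TCR and CL4-TCR. It was 23.4-fold and 32.9-fold higher than on CL4-TCR. Hells, a chromatin remodeller needed for normal DNA methylation, had signals of 1084, 861 and 182, and Cdca7, the factor that activates it, had 555, 313 and 91.0. Both were highest on VILLIN-HA/CL4-TCR. By their representing probe sets, their log2 differences from Villin-HA + CL4-TCR, 0.33 and 0.83, were short of 2-fold. The 3 Hells probe sets ranged from 0.31 to 1.01 there, the highest just past 2-fold. Between the HA arrays, 0 of the 14 partners were called higher and 0 lower. The shares over all measured genes were 6.14% higher and 8.95% lower. Lig1, the DNA ligase of the replication fork whose methylated form UHRF1 binds, had signals of 672, 897 and 222. Pcna, the sliding clamp, had log2 differences of 0.82 and 1.37 from CL4-TCR, and Hdac1, a histone deacetylase that binds DNMT1, had 1.15 and 0.34. Ehmt1, a histone methyltransferase, was the member called lower on Villin-HA + CL4-TCR, with a log2 difference of -1.07.

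Genes of DNA replication were higher on both HA arrays. Of 19 measured, 16 were higher on VILLIN-HA/CL4-TCR and 18 on Villin-HA + CL4-TCR than on CL4-TCR, with 0 lower. Their medians were 1.87 and 2.11. Of all measured genes, 7.43% and 11.9% were higher, and 6.63% and 9.53% lower. Rrm2, which makes deoxyribonucleotides, had signals of 1499, 2578 and 39.8 on VILLIN-HA/CL4-TCR, Villin-HA + CL4-TCR and CL4-TCR. Cdc6, which licenses replication origins, was at least 14.0-fold and at least 19.8-fold higher than on CL4-TCR. Uhrf1 lay above the median of these genes in both comparisons, and Dnmt1, at 0.02 and 0.23, lay below it. Between the HA arrays, 2 of 19 were lower on VILLIN-HA/CL4-TCR than on Villin-HA + CL4-TCR and 0 higher (median -0.40). Over all measured genes, 8.95% were lower and 6.14% higher, so 2 of 19 is near the share lower. The 2 lower ones were Tk1 (log2 difference -1.78), a thymidine kinase, and Rrm1 (-1.16), the partner of Rrm2. The part of cell division in the Uhrf1 difference was not tested.

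**Figure D2:**
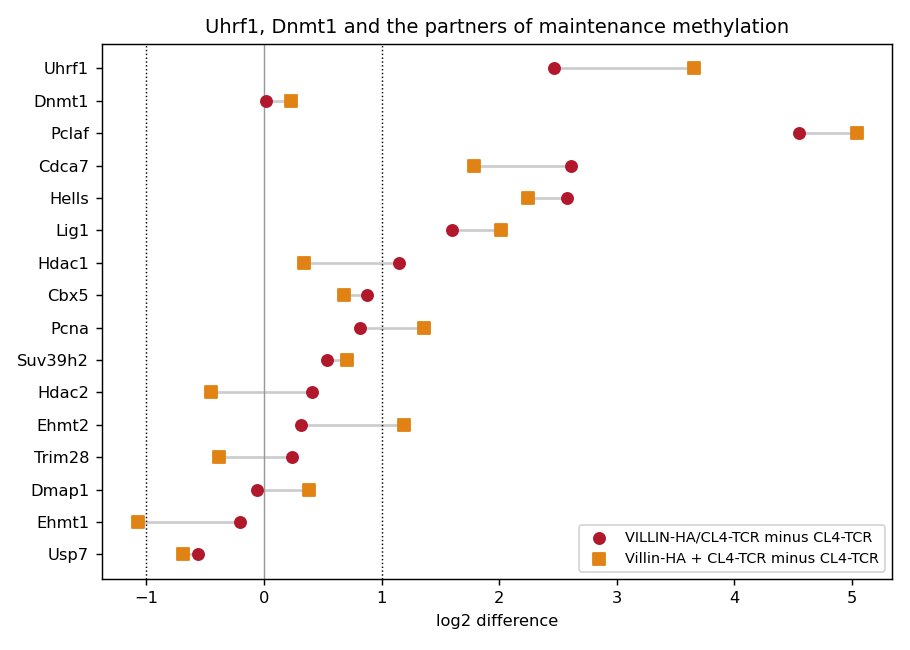
log2 difference from CL4-TCR (x axis) of Uhrf1, Dnmt1 and 14 partners of maintenance methylation (rows), on VILLIN-HA/CL4-TCR (circles) and Villin-HA + CL4-TCR (squares), 1 array each; dotted lines mark a 2-fold difference. Uhrf1 lay at 2.47 and 3.66, Pclaf at 4.55 and 5.04, and Dnmt1 near 0 at 0.02 and 0.23.

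Dnmt3a, the de novo methyltransferase, was higher on VILLIN-HA/CL4-TCR than on either other array. Its representing probe set had a signal of 1258 on VILLIN-HA/CL4-TCR, 211.5 on Villin-HA + CL4-TCR and 482 on CL4-TCR. The VILLIN-HA/CL4-TCR array thus stood above both others, and Villin-HA + CL4-TCR was the lowest. The log2 difference of VILLIN-HA/CL4-TCR minus CL4-TCR was 1.38, a fold of 2.61. All 5 probe sets were called higher in this comparison, where 6.47% of all measured named probe sets were. The array annotation gives all 5 the same source sequence, and they were read on the same arrays. They are therefore not replicates of the difference. The 4 with both signals above the floor had differences from 1.22 to 1.38 with an SD of 0.07, and the other was at least 3.64-fold higher (115 against 27.7). The array had the highest 3′ to 5′ ratio of the 3 for both Gapdh and beta-actin, though that of beta-actin varied little, and the place of each probe set on the transcript was not used here.

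The probe sets of Dnmt3a disagreed on Villin-HA + CL4-TCR. Against CL4-TCR, 2 of 5 were called lower (10.4% of all measured named probe sets were), with signals of 211.5 against 482 and of 110.5 against 222. Another had 105 against 177, a log2 difference of -0.75 and short of 2-fold. The remaining 2 went the other way, with signals of 209 against 162 (log2 difference 0.37) and of 56.9 against 27.7, which is at least 0.84. The SD between the 4 probe sets with no bound was 0.70, against 0.07 for VILLIN-HA/CL4-TCR minus CL4-TCR. The lower call rests on the representing probe set: with the mean of all probe sets the log2 difference was -0.35 and not called. Set against Villin-HA + CL4-TCR, all 5 probe sets were higher on VILLIN-HA/CL4-TCR, 4 of them by at least 2-fold (6.49% of all measured named probe sets were), with log2 differences from 0.94 to 2.57 and 1.76 by their mean.

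Dnmt3b, the second de novo enzyme, had no called difference. Its representing probe set had signals of 655 on VILLIN-HA/CL4-TCR, 392 on Villin-HA + CL4-TCR and 377 on CL4-TCR, and the other had 169, 93.8 and 140. VILLIN-HA/CL4-TCR was the highest array in both, with log2 differences of 0.80 and 0.27 from CL4-TCR and of 0.74 and 0.85 from Villin-HA + CL4-TCR. The first 2 straddle the pooled SD of 0.43, and the probe sets differed in sign between Villin-HA + CL4-TCR and CL4-TCR (0.06 and -0.58). Dnmt3l, the cofactor of de novo methylation in germ cells, lay under the floor on all 3 arrays (1.5, 6.0 and 19.8). Of 5 measured genes among the other DNMT family members and DNMT3 partners, 1 was called: Nsd2, a histone H3 lysine methyltransferase, had signals of 101 on VILLIN-HA/CL4-TCR, 298 on Villin-HA + CL4-TCR and 36.8 on CL4-TCR. It was 2.75-fold and 8.11-fold higher than on CL4-TCR, where 7.43% and 11.9% of all measured genes were called higher.

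**Figure D3:**
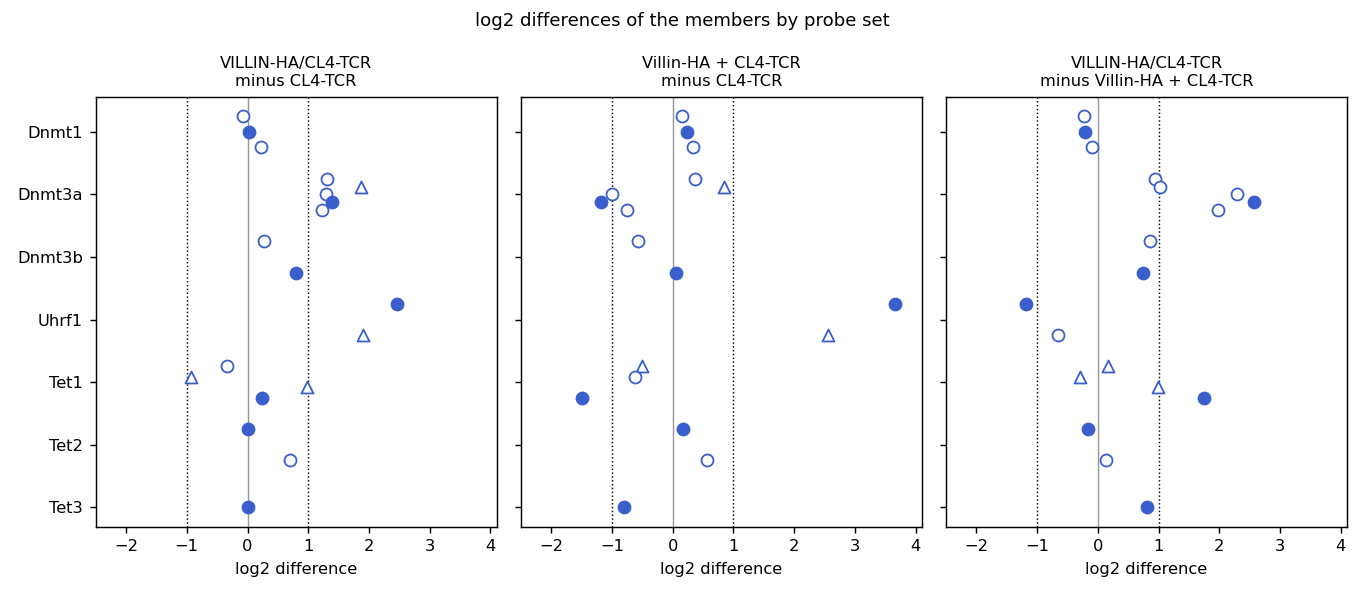
log2 difference (x axis) of each measured member probe set (rows by gene) in the 3 comparisons; filled symbols represent the gene, triangles are bounds with 1 signal under the floor, and dotted lines mark a 2-fold difference. The 5 Dnmt3a probe sets lie together between 1.22 and 1.86 in the left panel (VILLIN-HA/CL4-TCR minus CL4-TCR) but spread from -1.19 to 0.84 for Villin-HA + CL4-TCR minus CL4-TCR.

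Among the erasers, Tet2 and Tet3 had no called difference, and Tet1 was called by a single probe set, as lower on Villin-HA + CL4-TCR than on CL4-TCR and as higher on VILLIN-HA/CL4-TCR than on Villin-HA + CL4-TCR. Tet2, the TET enzyme best known in T cells, had signals of 613 on VILLIN-HA/CL4-TCR, 687 on Villin-HA + CL4-TCR and 609 on CL4-TCR by its representing probe set. The second probe set had 101, 92.2 and 62.1. Both were lowest on CL4-TCR, with log2 differences from it of 0.01 and 0.71 on VILLIN-HA/CL4-TCR and of 0.18 and 0.57 on Villin-HA + CL4-TCR. Tet3 had 1 probe set, with signals of 62.5, 35.8 and 62.1, so VILLIN-HA/CL4-TCR and CL4-TCR were nearly equal. Its log2 difference of Villin-HA + CL4-TCR minus CL4-TCR was -0.79, short of 2-fold, and it was called lower after scaling all arrays to 1 median.

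Tet1 lay close to the floor in most of its probe sets. The representing one had signals of 154 on VILLIN-HA/CL4-TCR, 46.2 on Villin-HA + CL4-TCR and 130.5 on CL4-TCR, so Villin-HA + CL4-TCR was lower than both others. Its log2 difference of Villin-HA + CL4-TCR minus CL4-TCR was -1.50, a 2.82-fold lower signal, and that of VILLIN-HA/CL4-TCR minus CL4-TCR was 0.24. Between the HA arrays, VILLIN-HA/CL4-TCR was 3.34-fold higher than Villin-HA + CL4-TCR, a log2 difference of 1.74. The other 3 probe sets had signals between 14.0 and 62.6 on all arrays. None of these 3 was called in any comparison. With the mean of all probe sets, Tet1 was called in neither comparison, its log2 difference from CL4-TCR being -0.66 on Villin-HA + CL4-TCR, while that between the HA arrays was 0.65. With the floor at the 65th percentile, its difference from CL4-TCR on Villin-HA + CL4-TCR was not called, and that between the HA arrays was a bound of 1.17.

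The genes that supply or complete the work of the TET enzymes did not share 1 direction. Of 13 measured TET partners and enzymes of 2-oxoglutarate supply, 0 were higher and 1 lower on VILLIN-HA/CL4-TCR than on CL4-TCR. On Villin-HA + CL4-TCR, 4 were higher and 1 was lower than on CL4-TCR. Among all measured genes, 7.43% were higher and 6.63% lower in the first comparison, and 11.9% and 9.53% in the second. Idh2, the mitochondrial isocitrate dehydrogenase that makes 2-oxoglutarate, had signals of 108 on VILLIN-HA/CL4-TCR, 299 on Villin-HA + CL4-TCR and 295 on CL4-TCR. VILLIN-HA/CL4-TCR was 2.73-fold lower than CL4-TCR. Cxxc5, a CXXC-domain protein that can bind TET2, had 673.5, 243 and 652 in the same order, 2.68-fold lower on Villin-HA + CL4-TCR than on CL4-TCR. Got1, a transaminase that yields or uses 2-oxoglutarate, had 91.7, 368.5 and 119.

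Among repair genes linked to demethylation, those called higher were mostly of the Gadd45 group. Of 12 measured genes of base excision and of the Gadd45 group, 3 were higher and 0 lower on VILLIN-HA/CL4-TCR than on CL4-TCR. On Villin-HA + CL4-TCR, 4 were higher and 1 was lower than on CL4-TCR. The shares over all measured genes were 7.43% higher and 6.63% lower in the first comparison, and 11.9% and 9.53% in the second. Gadd45b, a stress-induced gene linked to active demethylation, had signals of 282 on VILLIN-HA/CL4-TCR, 571 on Villin-HA + CL4-TCR and 63.4 on CL4-TCR, a fold of 4.45 and 9.01. Gadd45g of the same group had 212, 233 and 61.5. Both were lowest on CL4-TCR. Neil3, a DNA glycosylase gene, was called higher by bounds only, at least 2.93-fold and at least 2.35-fold. Its other probe set had log2 differences of 0.32 and 0.96, short of 2-fold. The uracil glycosylase gene Smug1 was the lower one on Villin-HA + CL4-TCR, with a log2 difference of -1.12. By their representing probe sets, Apex1, Parp1 and Polb, which complete base excision, were not called on either HA array against CL4-TCR. Other probe sets of Parp1 and Polb differed on Villin-HA + CL4-TCR. There the log2 differences from CL4-TCR of the 4 Parp1 probe sets ranged from -1.64 to 0.17. Those of the 4 Polb probe sets ranged from -1.32 to 0.09, so the lowest of each gene passed 2-fold.

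Of 12 measured genes that supply S-adenosylmethionine, the methyl donor of all DNMTs, 4 were higher and 0 lower on VILLIN-HA/CL4-TCR than on CL4-TCR. On Villin-HA + CL4-TCR, 3 were higher and 2 were lower than on CL4-TCR. All measured genes were 7.43% higher and 6.63% lower in the first comparison, and 11.9% and 9.53% in the second. Shmt1, which feeds one-carbon units into the folate cycle, had signals of 426, 235 and 88.4 on VILLIN-HA/CL4-TCR, Villin-HA + CL4-TCR and CL4-TCR. Ahcy, which clears the product that inhibits methyltransferases, had 1314, 1980 and 692. Adk, the adenosine kinase that acts after it, had 3462, 2166 and 592 by its representing probe set, but its 3 usable probe sets spanned -0.01 to 2.55 for VILLIN-HA/CL4-TCR against CL4-TCR. Mtrr, which keeps methionine synthase active, was lower on Villin-HA + CL4-TCR, with signals of 73.3 against 244 on CL4-TCR.

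Of 9 measured methyl-CpG readers, 0 were higher and 2 lower than on CL4-TCR on each HA array. Their medians were 0.06 on VILLIN-HA/CL4-TCR and -0.60 on Villin-HA + CL4-TCR. Over all measured genes, 7.43% were higher and 6.63% lower on VILLIN-HA/CL4-TCR, and 11.9% and 9.53% on Villin-HA + CL4-TCR. Zbtb4, a zinc finger protein that binds methylated DNA, had signals of 310, 151 and 810 on VILLIN-HA/CL4-TCR, Villin-HA + CL4-TCR and CL4-TCR, lower on both HA arrays by its representing probe set. Its 4 probe sets ranged from -1.43 to -0.46 and from -2.42 to -0.17. Mbd3, a subunit of the NuRD complex, had signals of 8.4, 116 and 84.7, at least 2.67-fold lower on VILLIN-HA/CL4-TCR. Uhrf2, the paralog of Uhrf1, had 147, 377 and 207 and was not called against CL4-TCR on either array. Its log2 difference between the HA arrays was -1.36. In that comparison, 4 of the 9 readers were higher on VILLIN-HA/CL4-TCR than on Villin-HA + CL4-TCR and 2 lower (median 0.71). Of all measured genes, 6.14% were higher and 8.95% lower. By their representing probe sets, the higher readers were Zbtb38 (log2 difference 1.44), Zbtb33 (1.18), Mbd6 (1.06) and Zbtb4 (1.03). The 4 Zbtb4 probe sets ranged from -0.29 to 1.03. The lower readers were Uhrf2 and, by a bound, Mbd3. The histone demethylases of the KDM group, other than Kdm1a, use 2-oxoglutarate as TET enzymes do. Of 13 in the group, Kdm1a included, 1 was higher and 0 lower on VILLIN-HA/CL4-TCR than on CL4-TCR. On Villin-HA + CL4-TCR, 1 was higher and 2 were lower than on CL4-TCR. The higher one on VILLIN-HA/CL4-TCR was Kdm2b, which binds unmethylated CpG islands, with signals of 2325 against 767.

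**Figure D4:**
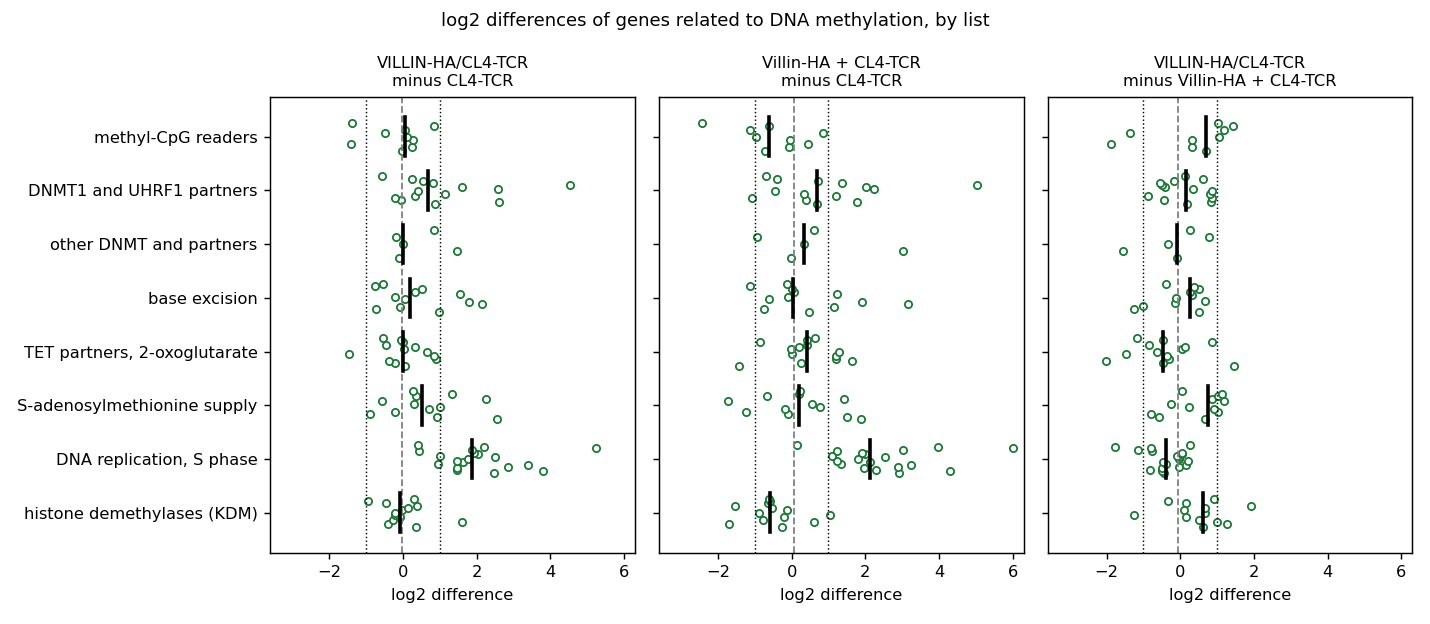
log2 differences (x axis) of measured genes in 8 lists related to DNA methylation (rows) in the 3 comparisons; each circle is 1 gene, the black bar is the median of the list, the dashed line the median of all measured genes and the dotted lines a 2-fold difference. The DNA replication list has medians of 1.87 and 2.11 against CL4-TCR, while the methyl-CpG readers have 0.06 and -0.60.

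The genes most like the 3 called members in pattern were found by the distance between their 2 log2 differences from CL4-TCR, over 9013 genes above the floor on all 3 arrays. For Dnmt3a, no gene lay within 0.25 on the log2 scale, and the nearest was Bbs12 at 0.50, followed by Zfpm1, Mcoln3, Rasl11b and Trat1. For Uhrf1, no gene lay within 0.25 either, and the nearest were Klf9 at 0.44, Ifi27l2a, Nmral1, Birc5 and Adam19. Birc5, which encodes survivin of the mitotic spindle, had log2 differences of 2.75 and 4.04. For Tet1, 23 genes lay within 0.25, the nearest being Mapk7 at 0.03, then Ipo4, Mmgt2, Zfp84 and Tmem184c. The distance rests on 2 differences that share 1 array.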

How the data were processed

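Expression was measured on 3 one-colour arrays, 1 for each of VILLIN-HA/CL4-TCR, Villin-HA + CL4-TCR and CL4-TCR, with groups taken from the source names. Biotin-labelled cRNA was made from 6 µg of total RNA, per the labels' protocols. The deposited values are MAS5 intensity values on a linear scale, per the submitters' processing notes; no version, target signal or detection call was given in the sources used here. The values bear a 2% trimmed mean of 149.9 to 150.0 on each array, so a change common to most transcripts cannot be seen.

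Of 45101 probe sets, 34958 had 1 gene symbol, 932 several and 9211 none. Symbols were updated by Entrez ID to the GRCm38.p6 RefSeq table (34754 found). A gene was represented by its probe set with the highest mean signal, values under the floor of 31.7 were raised to it, and log2 differences were taken (Python 3.11.15, pandas 2.3.3). Only 1 array per group exists, so no p-value is given, and the number of arrays limits the precision. Named are all members, up to 4 called genes by size from each list, the nearest 5 genes in pattern and others singled out after their values were seen. Members and lists were chosen with earlier results of these data known. Alternatives changed the scaling, floor, probe sets and fold.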

Additional observations from a re-analysis of the deposited data

How the results depend on the processing

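Of 147 log2 differences of the 7 genes under the alternatives for scaling, floor and probe sets, 139 moved by less than the pooled SD between probe sets, 8 moved by more, and 0 called ones changed sign. Dnmt3a was higher on VILLIN-HA/CL4-TCR than on CL4-TCR in all 7 such alternatives (1.35 to 1.44 on the log2 scale), and so was Uhrf1 (1.52 to 2.52, the lowest being a bound with the floor at the 65th percentile). Uhrf1 was higher on Villin-HA + CL4-TCR than on CL4-TCR in all 7 (2.71 to 3.66). On Villin-HA + CL4-TCR against CL4-TCR, the members called lower numbered 2, against 3 with arrays scaled to the same median, 3 at a fold of 1.5, 1 with the floor at the 65th percentile (Dnmt3a) and 0 with the mean of probe sets. On VILLIN-HA/CL4-TCR, 4 members were higher and 0 lower than on Villin-HA + CL4-TCR with arrays scaled to the same median, 1 was higher and 0 lower with the mean of probe sets, and 4 were higher at a fold of 1.5.

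Over all genes, the counts that moved by more than 1.5 times were as follows. On VILLIN-HA/CL4-TCR against CL4-TCR, 1848 were higher and 1947 lower at a fold of 1.5, and 1172 lower with the floor at the 35th percentile. On Villin-HA + CL4-TCR against CL4-TCR, 2878 were higher and 2498 lower at a fold of 1.5, 2320 and 943 were higher with the floor at the 35th and 65th percentile, and 665 lower with the mean of probe sets. Between the HA arrays, 1977 were higher and 2513 lower at a fold of 1.5, 1370 higher and 665 lower with arrays scaled to the same median, 342 higher with the mean of probe sets, and 1968 and 634 lower with the floor at the 35th and 65th percentile. Scaling to the same median moved the median of all genes by -0.19 for Villin-HA + CL4-TCR over CL4-TCR and by 0.25 between the HA arrays. The share of calls that were higher was 38.2% in place of 55.6% and 67.3% in place of 40.7%. The cause was not tested. Signals near the floor limit Tet1, Tet3 and the CL4-TCR value of Uhrf1. No paired analysis was possible because each group has 1 array.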
